A study of Mus musculus with 2 samples.

Results

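The genes described here are 10 mouse genes of macrophages and of the clearance of dead cells: C1qa, C1qb, C1qc, Axl, Mertk, Cd5l, Vcam1, Timd4, Mrc1 and Adgre1. They were chosen by symbol from the 32286 features of the count tables, and all 10 were found. Bone marrow hematopoietic cells were profiled in 2 droplet-based 3′ RNA sequencing libraries of single cells, 1 per group. The control group had the genotype Mx1Cre+/-;Rosa26+/+ and the other group, called the MYC library here, the genotype Mx1Cre+/-;Rosa26LSL-MYC/LSL-MYC. Mx1-Cre is a Cre recombinase under an interferon-inducible promoter that also acts outside blood cells, and LSL-MYC places a human MYC transgene after a stop cassette, which Cre cuts out. Both groups carried Mx1-Cre. The age of the mice, an inducing agent and the number of animals in each library are not given in the sources used here. The series asked how overexpression of MYC in blood stem cells changes gene expression in the marrow.

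C1q is the recognition part of the classical complement pathway. It is built from A, B and C chains, encoded by C1qa, C1qb and C1qc, and it binds dying cells as well as immune complexes. Most C1q is made by tissue macrophages and some dendritic cells. Efferocytosis is the uptake of dying cells, which in the marrow includes aged neutrophils and the nuclei that erythroblasts expel. Axl and Mertk are receptor tyrosine kinases that bind phosphatidylserine on dying cells through bridging proteins, and Timd4 binds phosphatidylserine directly. Cd5l is a protein secreted by resident macrophages, Vcam1 an adhesion molecule that holds erythroblasts to their central macrophage, Mrc1 the mannose receptor and Adgre1 the gene of the macrophage surface marker F4/80.

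The C1q genes are neighbours, which is why their control regions are shown together. In the GENCODE annotation of GRCm38, C1qb (ENSMUSG00000036905) spans chr4:136880129-136886187, C1qc (ENSMUSG00000036896) chr4:136889804-136893065 and C1qa (ENSMUSG00000036887) chr4:136895917-136898803, all on the minus strand. The whole stretch covers 18675 bases and holds 0 other annotated genes. The gap is 3616 bases between C1qb and C1qc and 2851 bases between C1qc and C1qa. Each gene has 3 exons in its longest transcript. The bases before the start of C1qb and C1qc, from RefSeq on GRCm38.p6, are printed 5′ to 3′ on the minus strand, and the capitals mark matches to motifs of factors active in macrophages. The C1qb stretch is chr4:136886201-136886450 and the C1qc stretch is chr4:136893066-136893164. RefSeq places the start of C1qc at base 136892914, inside the GENCODE gene, so that stretch was limited to the 99 bases outside the gene in both annotations.
C1qb: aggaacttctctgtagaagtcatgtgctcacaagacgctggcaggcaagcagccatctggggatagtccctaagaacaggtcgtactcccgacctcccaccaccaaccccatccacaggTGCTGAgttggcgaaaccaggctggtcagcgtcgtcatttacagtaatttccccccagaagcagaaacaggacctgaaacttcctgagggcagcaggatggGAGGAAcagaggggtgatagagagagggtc
C1qc: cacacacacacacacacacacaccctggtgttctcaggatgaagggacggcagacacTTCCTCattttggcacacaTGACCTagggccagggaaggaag

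Motifs were searched on both strands in the 250 bases before the start of each of 32851 RefSeq promoters, among which 7 of the 10 genes had an entry. C1qa, Vcam1 and Adgre1 had none. GAGGAA, a core of the sites of PU.1, the factor that specifies myeloid cells, was found before 5 of the 7 genes (C1qb, C1qc, Axl, Cd5l and Mrc1) and in 23.3% of all promoters. TGCTGA, part of the sites of the MAF factors, was found before 3 (C1qb, Cd5l and Timd4) and in 16.1% of all. AGGTCA, part of the sites of nuclear receptors, was found before 2 (C1qc and Timd4) and in 14.0%. CACGTG, the E-box that MYC and other factors bind, was found before 0 of the 7 and in 6.02%. In C1qb the GAGGAA match lies 30 to 25 bases before the start and the TGCTGA match 131 to 126 bases before it. In C1qc both matches read on the opposite strand, as TTCCTC and TGACCT, at 193 to 188 and 174 to 169 bases before the start. These matches describe letters only and do not show binding.

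The control library held 17073 barcodes and 131884603 unique molecular identifiers (UMIs, each a counted transcript molecule), and the MYC library 14496 barcodes and 110012176 UMIs. After filters 14903 control cells and 12540 cells of the MYC library remained, with medians of 5343 and 6016 UMIs. Levels are given as UMIs per 1000000 UMIs of the cells summed (CPM). With 1 library per group no test was possible, and all intervals are exact 95% intervals that cover counting error only. A gene was called higher or lower when it had at least 50 UMIs over both groups, differed by at least 2-fold, and had an interval that excluded equality. Human MYC had 0 UMIs in the control and 289 UMIs in 267 cells of the MYC library, so the labels matched the transgene. The libraries shared 97 barcode sequences, of which 79 were kept in both.

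Over all kept cells the C1q chains were far higher in the MYC library, Cd5l was moderately higher, and the other genes differed by less than 2-fold. Of 9 genes with enough UMIs, 4 were called higher and 0 lower, against a background over all 14164 tested genes of 2.82% higher and 9.45% lower. C1qa was at 10.6 CPM in control cells and 65.6 in those of the MYC library, a 6.19-fold difference (log2 ratio 2.63, interval 2.54 to 2.72). C1qb was at 7.96 and 101.2 CPM, a 12.7-fold difference (log2 3.67, 3.57 to 3.77). C1qc was at 6.81 and 62.4 CPM, a 9.17-fold difference (log2 3.20, 3.09 to 3.30). The 3 chains together had 3085 UMIs in control cells and 23340 in those of the MYC library, a 9.04-fold difference. All 3 chains of the protein were higher, C1qb by the most.

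Among the receptors, Axl was at 6.12 CPM in control cells and 7.07 in those of the MYC library (log2 0.21, 0.06 to 0.36). Its direction turned to -0.028 at a limit of 5% mitochondrial UMIs and to -0.79 without the Fcrl5-led cluster described below. Mertk was at 1.17 and 0.60 CPM (142 and 61 UMIs; log2 -0.96, -1.42 to -0.52). Timd4 had 13 and 19 UMIs, too few for a ratio. None of these receptor genes was called. Cd5l was at 1.21 and 3.43 CPM (147 and 349 UMIs), a 2.84-fold difference (log2 1.5, 1.22 to 1.79). Among the alternatives run, a stricter limit of 5% mitochondrial UMIs was the one that took this difference below the call, to 0.35 (-0.04 to 0.75). Vcam1 was at 37.8 and 27.5 CPM (log2 -0.46), Mrc1 at 6.20 and 3.11 CPM (log2 -0.99, -1.19 to -0.80) and Adgre1 at 11.5 and 10.9 CPM (log2 -0.08, -0.19 to 0.04). Mertk and Mrc1 lay just short of a 2-fold decrease. The median log2 ratio of all tested genes was -0.21, and scaling by median ratios in place of total UMIs raised every ratio by that amount, which put Adgre1 at 0.13. Totals over all cells mix the number of cells that express a gene with the level in each, and the classes below separate them.

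**Figure D1:**
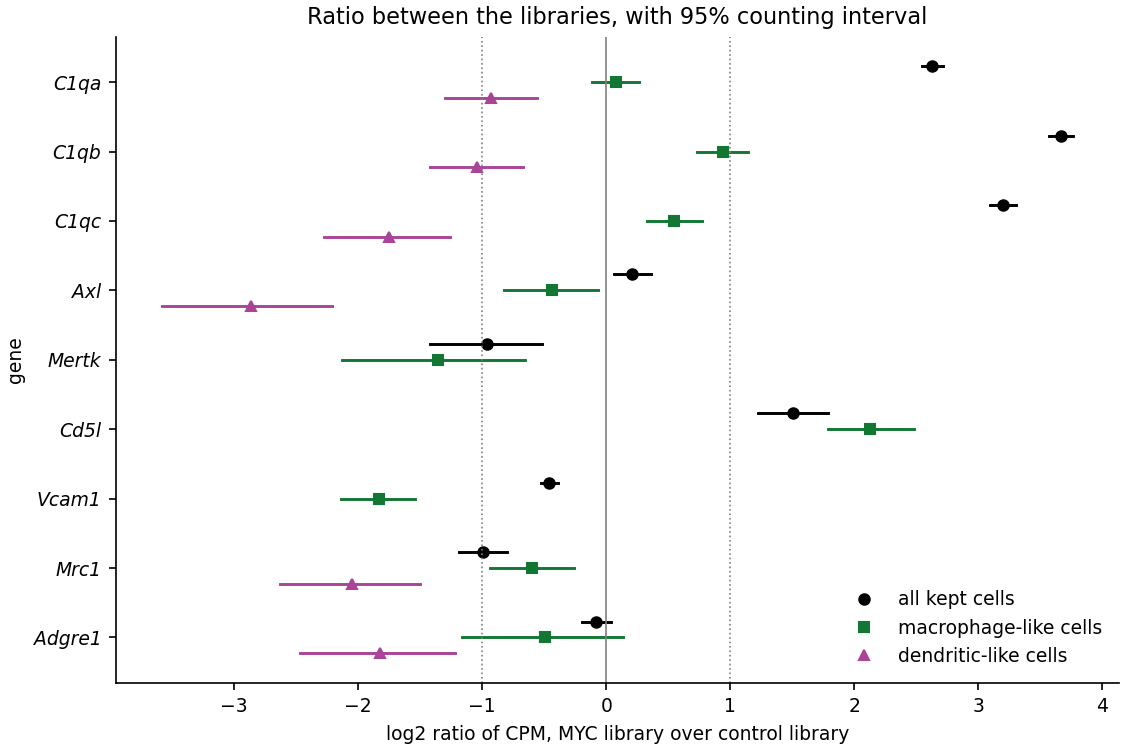
Log2 ratio of CPM, MYC library over control library, for 9 of the genes in all kept cells, macrophage-like cells and dendritic-like cells, where at least 50 UMIs were counted. Points are ratios, bars are 95% counting intervals and dotted lines mark 2-fold. Over all kept cells C1qa, C1qb and C1qc lie at 2.63, 3.67 and 3.20, while in dendritic-like cells Axl lies at -2.87.

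Cells were clustered without the 10 genes and named by marker genes that include none of them. A small macrophage-like cluster of 21 control cells (0.141% of kept cells, interval 0.0872% to 0.215%) and 12 cells of the MYC library (0.0957%, 0.0495% to 0.167%) carried all 10 genes. Besides Cd5l, Mrc1, Mertk and Axl, its leading genes were Fcna, Igf1, Spic, Kcnj10, Kcna2 and Ccr3. Of the 16 macrophage markers, 15 had UMIs in each library, with Vsig4 at 0 in the control and Cd163 at 0 in the MYC library. Spic, a transcription factor of macrophages that recycle red cell iron, was at 435 CPM in control cells and 388 CPM in those of the MYC library. Dendritic cell markers, mostly MHC class II genes, also summed to 12330 and 10782 CPM there. Of the 12 dendritic markers, 7 had UMIs among these control cells and 8 among their MYC counterparts. Cd209a, Flt3, Zbtb46 and Irf4 were at 0 in both libraries. The median cell held UMIs of 8 of the 10 genes in either library.

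For every gene of the set this cluster had the highest level of any class in both libraries. In the control the intervals of Axl, Cd5l, Timd4 and Adgre1 overlapped those of the next class, and in the MYC library none of the 10 did. C1q made up 7890 CPM of these cells in the control library and 11044 CPM in its MYC counterpart. Among the other genes Vcam1 was highest in the control and Cd5l in the MYC library. Vcam1 was at 4043 and 1134 CPM, Mrc1 at 1554 and 1029 CPM and Axl at 1168 and 861 CPM. Cd5l was at 554 and 2425 CPM, Mertk at 538 and 210 CPM and Adgre1 at 429 and 304 CPM. Timd4 had 6 UMIs in 3 control cells and 8 UMIs in 1 cell of the MYC library. UMIs were counted at transcript 3′ ends, so CPM carries no term for length, but how well each gene's 3′ end was captured was not measured.

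**Figure D2:**
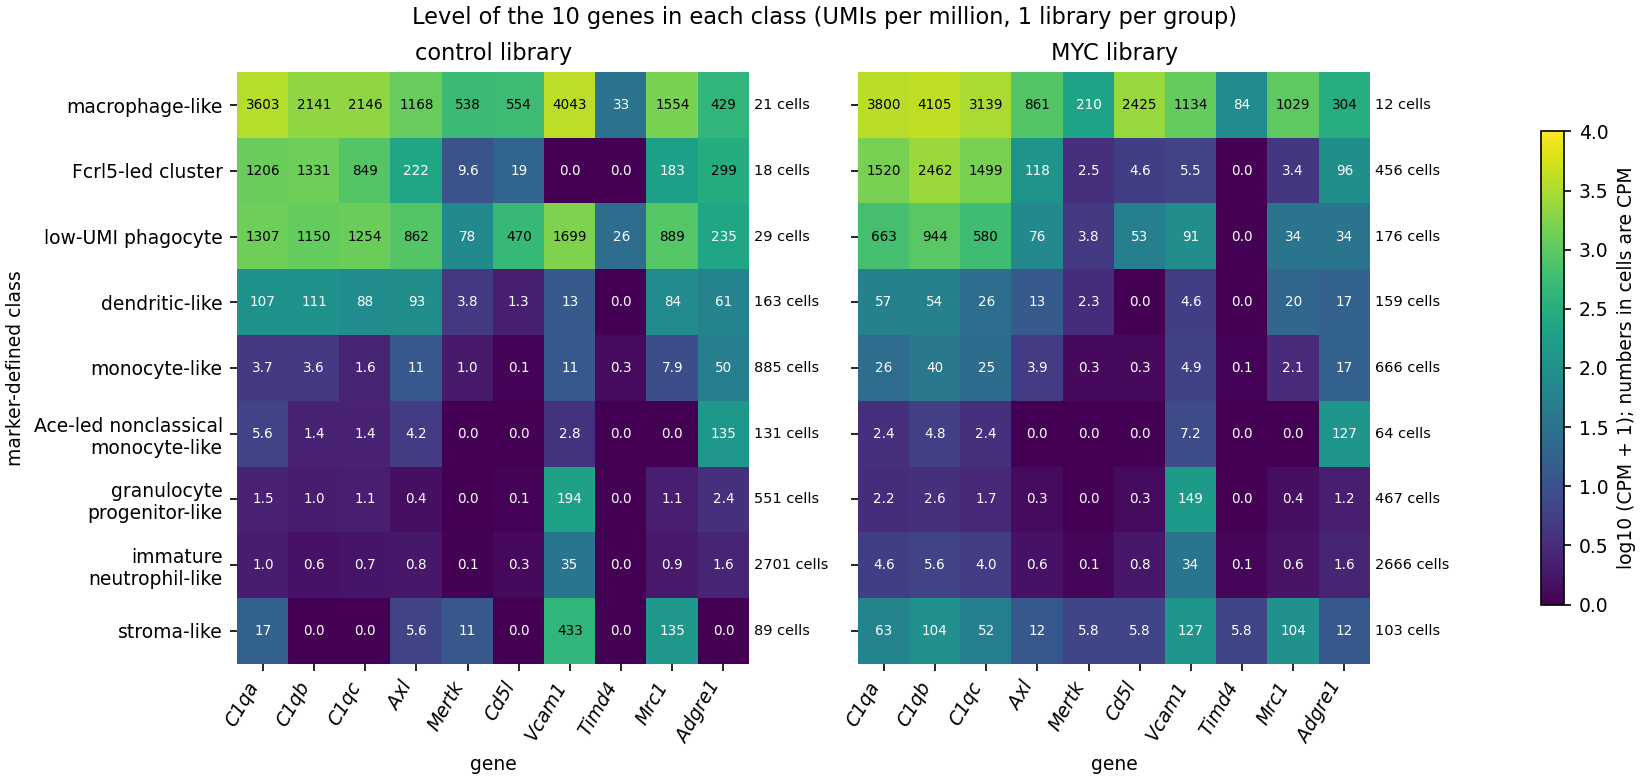
Level of each of the 10 genes in 9 classes, control library left and MYC library right, in CPM. Colour is log10 of CPM plus 1, the number in each field is CPM, and the cell count of each class stands at the right. The top row, macrophage-like cells, is high for all 10 genes in both libraries. The Fcrl5-led cluster is high for C1q but not for Vcam1, Cd5l or Mertk. Its Mrc1 level is 183 CPM on the left (control) but 3.39 CPM on the right (MYC library).

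Within the macrophage-like cells 1 gene, Cd5l, was called higher and 2, Vcam1 and Mertk, lower in the MYC library, of 9 tested. Over the 648 genes with enough UMIs in these few cells, 15.6% were called higher and 8.8% lower, so that the counts themselves stand close to the background. Cd5l had 102 UMIs in 10 of 21 control cells and 231 UMIs in 10 of 12 cells of the MYC library, a 4.38-fold difference (log2 2.13, 1.79 to 2.48). It was uneven from cell to cell: the richest cell had 52 UMIs among control cells and 110 among those of the MYC library. Leaving out these cells gave a log2 ratio of 2.30. At a limit of 5% mitochondrial UMIs the class took in 149 cells of the MYC library and the ratio turned to -2.35. Clustering the libraries apart gave 0.42.

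Vcam1 in macrophage-like cells had 744 UMIs in 18 of 21 control cells and 108 UMIs in 12 of 12 cells of the MYC library, a 3.57-fold decrease (log2 -1.83, -2.14 to -1.54). Single cells ranged from 0 to 113.5 Vcam1 UMIs per 10000 in the control, with a median of 25.8, and from 2.85 to 38.6 in the MYC library, with a median of 11.4. The ranges thus overlapped, with the highest cells in the control. Erythroid markers summed to 4260 CPM in these control cells, with a median of 1174 CPM per cell, and to 556 CPM in the MYC library, with a median of 486. Their part in the Vcam1 difference was not tested. Mertk had 99 and 20 UMIs (log2 -1.36, -2.13 to -0.65), but averaging over cells instead of summing gave -0.65, which is less than 2-fold. No interval was computed for that mean.

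The remaining tested genes differed by less than 2-fold in macrophage-like cells, and Timd4 was too sparse to test. C1qa was at 3603 CPM in control cells and 3800 CPM in those of the MYC library (log2 0.08, -0.11 to 0.26), C1qb at 2141 and 4105 CPM (log2 0.94, 0.73 to 1.14) and C1qc at 2146 and 3139 CPM (log2 0.55, 0.33 to 0.77). Summed C1q per cell was 45.9 to 114.3 UMIs per 10000 in the control, with a median of 74.3, and 6.44 to 146.0 in the MYC library, with a median of 107.3. The cells of both libraries overlapped widely, and the summed log2 ratio was 0.49 (0.37 to 0.60). Under the stricter mitochondrial limit it became -1.18, with C1qa at -1.66, C1qb at -0.61 and C1qc at -1.22, so its direction depends on which cells form the class. The log2 ratios of Axl (-0.44, -0.83 to -0.07), Mrc1 (-0.60, -0.94 to -0.26) and Adgre1 (-0.50, -1.16 to 0.13) were below 0, but none was called and the interval of Adgre1 spanned 0.

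Most of the C1q of the MYC library lay outside these macrophage-like cells. In the control they held 47.1% of the C1q UMIs, in the MYC library 4.51%. There, 76.3% (17808 UMIs) lay in a separate cluster of 456 cells (3.64% of kept cells), which in the control had 18 cells (0.121%) and 351 C1q UMIs (11.4%). Its leading genes besides C1qb, C1qc and C1qa were Fcrl5, Negr1, Cd300e, Asb2, Cadm1, Fabp4 and Gm26620, and it is called the Fcrl5-led cluster here. It scored highest for nonclassical monocyte markers, of which Cd300e was among its leading genes, but it is given no cell type name. As nearly all of its cells came from 1 library, the cluster could reflect that library more than any type of cell. Without it the log2 ratio of C1q over all kept cells was 1.32 (1.25 to 1.39) in place of 3.18.

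**Figure D3:**
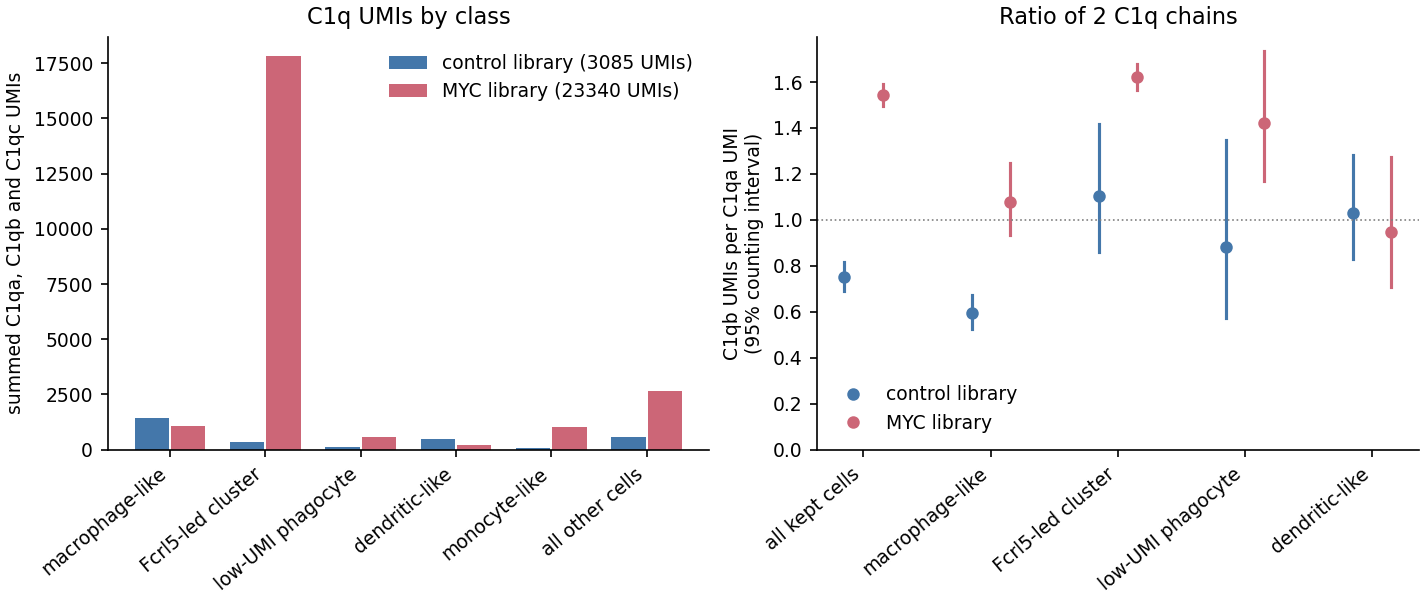
Left, C1qa, C1qb and C1qc UMIs summed in each class of the control library (3085 UMIs) and of the MYC library (23340 UMIs), as bars from 0. Right, C1qb UMIs per C1qa UMI in 5 groups of cells with 95% counting intervals. The bar of the Fcrl5-led cluster in the MYC library stands at 17808 UMIs, and the chain ratio is higher in the MYC library in macrophage-like cells but not in dendritic-like cells.

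In the MYC library the Fcrl5-led cells carried the C1q chains, Axl and Adgre1 with little Mertk, Cd5l, Vcam1, Timd4 or Mrc1. There C1qa was at 1520 CPM, C1qb at 2462 CPM and C1qc at 1499 CPM, and 369 of 456 cells held UMIs of all 3 chains. Axl was at 118 CPM, with UMIs in 189 of the cells, and Adgre1 at 96.0 CPM, with UMIs in 188. By contrast Vcam1 was at 5.54 CPM (18 UMIs), Cd5l at 4.62 CPM (15 UMIs), Mrc1 at 3.39 CPM (11 UMIs) and Mertk at 2.46 CPM (8 UMIs). Timd4 UMIs were found in 0 of 456 cells, which by a limit of 3 counts bounds the share of cells with a UMI at 0.658% and says nothing of cells that express it below detection. Of the 456 cells, 422 (92.5%) held no UMI of Mertk, Cd5l, Vcam1, Timd4 or Mrc1, as did 14 of the 18 control cells (77.8%). The median depth was 7064 UMIs here and 7883.5 UMIs in the macrophage-like cells of the same library.

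Within the MYC library the macrophage-like cells exceeded the Fcrl5-led cells 525-fold in Cd5l (312 to 954), 304-fold in Mrc1 (163 to 629) and 205-fold in Vcam1 (124 to 358). Mertk differed 85.3-fold (36 to 224) on 28 UMIs. For C1q the difference was only 2.02-fold (1.89 to 2.14), for Axl 7.30-fold (5.68 to 9.29) and for Adgre1 3.17-fold (2.09 to 4.65). Of 8 genes tested, 7 were called lower in the Fcrl5-led cells, and 0 higher, against 7.13% lower and 4.23% higher of 6046 genes. Of the 16 macrophage markers 11 could be tested, and 10 were called lower in the Fcrl5-led cells and 0 higher. Ms4a7, at 136 and 108 CPM, was the 1 not called. These markers also named the macrophage-like cluster, so their levels are a description. Spic was at 388 CPM in the macrophage-like and 25.2 CPM in the Fcrl5-led cells, and Hmox1, the heme-degrading enzyme, at 1008 and 31.7 CPM. Apoe, the apolipoprotein that macrophages secrete, was at 18760 and 1270 CPM. Pparg, which is not on that list, went the other way, at 84.0 and 170 CPM, on 8 and 554 UMIs (log2 1.02, 0.03 to 2.24). In control macrophage-like cells it was at 168 CPM (31 UMIs). The macrophage markers summed to 1975 CPM in the Fcrl5-led cells of the MYC library, with Cd163 and Marco at 0, and to 26130 CPM in the macrophage-like cells.

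**Figure D4:**
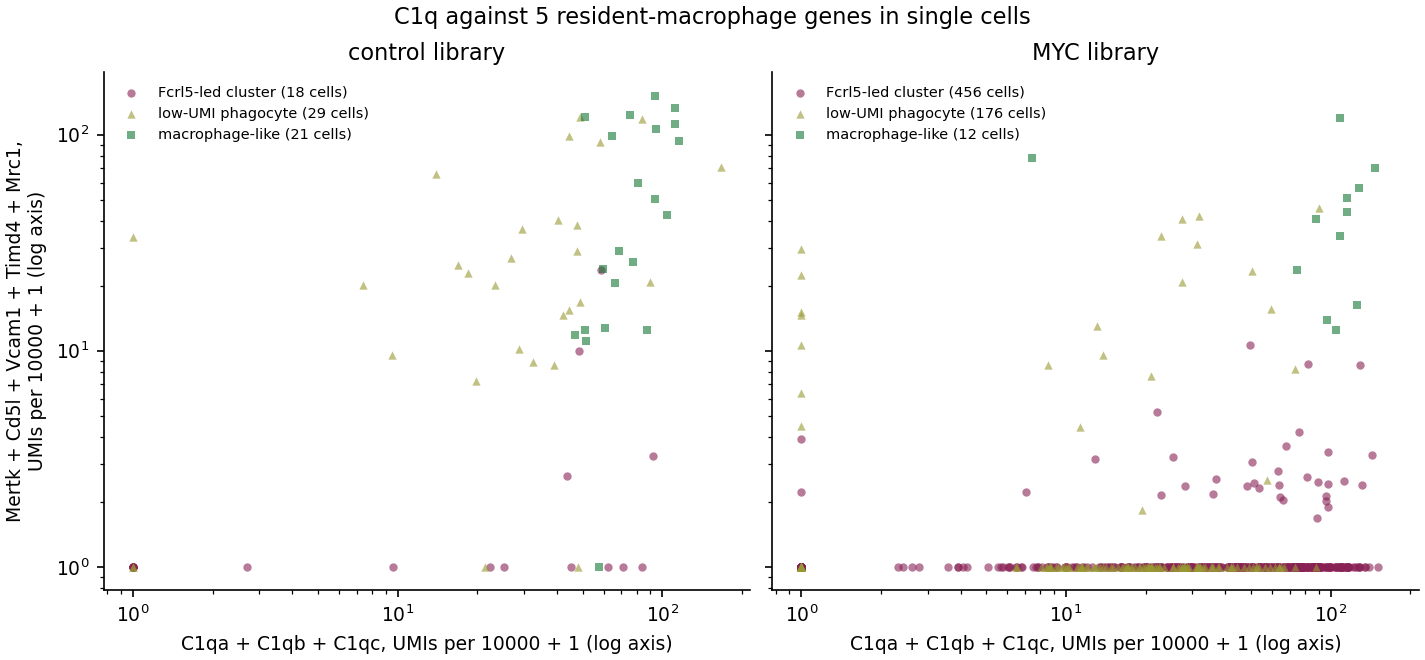
Each point is a cell. The horizontal axis is summed C1q and the vertical axis summed Mertk, Cd5l, Vcam1, Timd4 and Mrc1, both as UMIs per 10000 plus 1 on log axes, for the control library left and the MYC library right. Of the 456 Fcrl5-led cells in the MYC library, 422 lie at the bottom with 0 UMIs of the 5 genes, while most macrophage-like cells lie high on both axes. Among the 21 control macrophage-like cells, 1 also has 0 UMIs of the 5 genes.

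The 18 Fcrl5-led cells of the control were higher in Adgre1, at 299 CPM against 96.0 CPM in the MYC library (log2 -1.64, -2.17 to -1.06), the 1 gene called of 5 tested. In this cluster 4.76% of 6049 genes were called higher and 5.64% lower. C1q was at 3386 CPM in control cells and 5481 CPM in those of the MYC library, and Axl at 222 and 118 CPM. Mrc1 was at 183 CPM in the control cells, with 19 UMIs in 3 of them, and at 3.39 CPM in the MYC library. MHC class II and other dendritic markers summed to 6839 CPM in the control cells and 1100 CPM in the MYC library, so that the cells assigned to this cluster differed between the libraries beyond these genes. An unnamed cluster of 1 control cell and 14 cells of the MYC library, led by C1qb, C1qa and Fcrl5, held another 552 C1q UMIs (2.37% of that library) at 3803 CPM. Human MYC had 9 UMIs in 9 of the Fcrl5-led cells, so transgene expression at single-cell level was not detectable in most of them at this depth.

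Another cluster with the markers of patrolling, or nonclassical, monocytes, led by Ace, Adgre4 and Treml4, carried almost no C1q, unlike the Fcrl5-led cluster. It held 131 control cells and 64 cells of the MYC library, with 6 and 4 C1q UMIs. Of the 10 genes only Adgre1 was measured there with enough UMIs, at 135 CPM in control cells and 127 CPM in those of the MYC library (log2 -0.08, -0.60 to 0.41). It was not called; 4.59% of 2874 genes were called higher and 5.29% lower. In the MYC library C1q was at 9.6 CPM in the Ace-led cells (2.61 to 24.6), not above the 15.9 CPM of the neutrophil lineage, and at 5481 CPM in the Fcrl5-led cells. Of 5 genes tested, 4 (the C1q chains and Axl) were called higher and 0 lower, against 11.9% higher and 8.94% lower of 6345 genes. In the Ace-led cells C1qa, C1qb, C1qc and Axl had 1, 2, 1 and 0 UMIs. They had enough UMIs for a test only through the Fcrl5-led cells, so higher was the only call open to them. The count of calls therefore adds nothing to the levels. Adgre1 differed little, at 96.0 and 127 CPM.

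The C1q-rich cells were also counted without regard to cluster. Those with at least 10 C1q UMIs were 58 control cells (0.389%) and 411 cells of the MYC library (3.28%), which held 78.6% and 88.1% of all C1q UMIs. By cluster, 345 of the 411 were the Fcrl5-led cells described above and 11 were macrophage-like, so in the MYC library the count largely covers the same cells. The 58 control cells were a mix of 21 macrophage-like, 18 dendritic-like, 9 Fcrl5-led, 3 low-UMI, 2 monocyte-like and 5 other cells, and the control shares describe that mix. The median depth was 7950.5 UMIs for the control cells and 7928 UMIs for the others. Mertk UMIs were found in 41.4% of these cells in the control (28.6% to 55.1%) and 3.65% in the MYC library (2.06% to 5.95%), Vcam1 in 29 and 28 of the cells (6.81% in the MYC library), and Mrc1 in 70.7% and 5.60%. Axl was found in 87.9% and 49.4% and Adgre1 in 67.2% and 45.7%. In numbers of cells, those with UMIs of both Mertk and Vcam1 numbered 19 in the control library and 9 in the MYC library. The limit of 10 UMIs is a range and not a type, and 14 and 60 cells lay between 8 and 12 UMIs.

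The balance of the chains differed as well. In macrophage-like cells there were 0.594 C1qb UMIs per C1qa UMI in the control (0.523 to 0.674) and 1.08 in the MYC library (0.934 to 1.25). In the Fcrl5-led cells the values were 1.10 (0.860 to 1.42) and 1.62 (1.56 to 1.68). Dendritic-like cells, at 1.03 (0.828 to 1.28) and 0.949 (0.707 to 1.27), did not show a difference beyond counting error. Over all kept cells the ratio was 0.751 among control cells and 1.54 in the MYC library. C1q UMIs found in mature neutrophils, which are not known to make the protein, came at 0.706 (0.308 to 1.57) and 1.52 (1.18 to 1.98) C1qb per C1qa.

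Low amounts of C1q were present in classes that should lack it, and these give background levels, which differed between classes. Its source was not tested: free RNA was not measured, and doublets remained among the cells. In mature neutrophils 2.78% of control cells and 12.2% of cells in the MYC library had a C1q UMI, at medians of 4845 and 5269.5 UMIs per cell. A C1q UMI was found in 8 of 400 control T cells and 12 of 151 (7.95%) in the MYC library, and the shares were 1.86% and 17.6% in mature B cells. Stroma-like cells, at medians of 803 and 981 UMIs per cell, had C1q at 16.9 CPM (3 UMIs) in the control and 219 CPM (38 UMIs) in the MYC library. Over the neutrophil lineage C1q was at 3.21 and 15.9 CPM. There 4 of 8 tested genes (the C1q chains and Cd5l) were called higher and 0 lower, against 2.03% and 4.29% of 11576 genes, the same 4 genes as over all kept cells. These shares set the level below which a C1q UMI in a class cannot be read as expression. Subtracting the neutrophil level from each library left the C1q ratio over all kept cells at 3.27.

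Monocyte-like cells, 885 from the control and 666 from the MYC library, had lower Axl, Mrc1 and Adgre1 in the MYC library, while their differences in C1q and Vcam1 lay mostly in 1 cluster with high doublet scores. Of 7 genes tested, 3 were called higher and 4 lower, against 4.73% higher and 5.96% lower of 10123 genes. Adgre1 was at 50.2 CPM in control cells and 16.5 CPM in those of the MYC library (log2 -1.60, -1.85 to -1.36), Axl at 11.5 and 3.91 CPM (-1.55), Mrc1 at 7.93 and 2.13 CPM (-1.89) and Vcam1 at 11.5 and 4.88 CPM (-1.23). Different clusters made up the class in each library. A cluster led by Arhgef37 and Ms4a8a contained 562 control cells but 33 cells of the MYC library, whereas another led by Vcan and Ifi30 held 5 and 289. Clusters that scored best as monocytes but stayed unnamed, with 262 control cells and 639 of the MYC library, are outside the class. The largest was led by Vcan and Apoc2 and held 7 and 556 cells. Adgre1 over these unnamed clusters was at 33.7 CPM in the MYC library, above the 16.5 CPM of the class. The ratios of the class therefore hold for its named clusters only. Inside the Arhgef37-led cluster Adgre1 was at 79.7 and 44.4 CPM (log2 -0.84). Inside a cluster led by Itga1 and F13a1 with 101 and 138 cells it was at 20.1 and 18.8 CPM (-0.10).

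The monocyte-like C1q and Vcam1 came mostly from that 1 cluster. Over the class C1q had 94 UMIs (8.98 CPM) in control cells and 1019 UMIs (90.5 CPM) in the MYC library, and 71 and 906 of these UMIs lay in a cluster led by Pid1 and F13a1, with 123 and 122 cells. That cluster had a median doublet score of 0.12, against 0.0251 in the Arhgef37-led one. It also held 96 of the 120 Vcam1 UMIs of the class in control cells and 30 of 55 in the MYC library. In the other monocyte-like cells, 762 and 544, Vcam1 had 24 UMIs (1.92 to 4.47 CPM) and 25 UMIs (1.86 to 4.25 CPM), with no decrease beyond counting error. C1q in these other cells was at 1.82 to 4.32 CPM (23 UMIs) and 10.7 to 15.6 CPM (113 UMIs; log2 2.18, 1.52 to 2.89), below the 25.8 CPM of mature neutrophils in the MYC library. The control value was likewise not above the 6.13 CPM of mature neutrophils there. Granulocyte progenitor-like cells of the MYC library had 6.56 CPM of C1q, below these monocyte-like cells. The progenitors' median of 19126 UMIs was nearer to the 16132 of the monocyte-like class than the 5269.5 of mature neutrophils. As the background level differs between classes, whether this C1q is expression was not settled. Axl (-1.99), Mrc1 (-1.84) and Adgre1 (-1.88) were lower over the rest of the class, but not in each cluster. Axl was at 3.76 CPM (6 UMIs) and 4.57 CPM (9 UMIs) in the Itga1-led cluster, and Mrc1 at 7.21 CPM (37 UMIs) and 20.2 CPM (5 UMIs) in the Arhgef37-led one. As the clusters of the class differ between the libraries, its ratios mix their make-up with the level in each.

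Dendritic-like cells of the MYC library had less Axl, Mrc1 and Adgre1. This class held 163 control cells and 159 cells of the MYC library, in a cluster led by Cd209a and MHC class II genes (142 and 100 cells) and another led by Xcr1 (21 and 59 cells). Axl was at 92.7 CPM in the control (145 UMIs, 35.6% of cells) and 12.7 CPM in the MYC library (22 UMIs, 9.43%), a log2 ratio of -2.87 (-3.59 to -2.22). Mrc1 was at 83.8 and 20.2 CPM (log2 -2.05, -2.63 to -1.51) and Adgre1 at 61.4 and 17.3 CPM (log2 -1.83, -2.47 to -1.22). Of 6 genes tested 5 were called lower, these and C1qb and C1qc, against 5.02% lower and 5.57% higher of 6180 genes. Within the Cd209a-led cluster alone the log2 ratios were -2.36 for Axl, -1.59 for Mrc1 and -1.62 for Adgre1.

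C1q in the dendritic-like class was at 306 CPM in control cells and 136 CPM in those of the MYC library (478 and 236 UMIs, each in 37 cells). C1qa was at 107 and 56.5 CPM (log2 -0.93), C1qb at 111 and 53.7 CPM (-1.04) and C1qc at 87.6 and 26.0 CPM (-1.75). In the control this was 15.5% of all C1q UMIs and in the MYC library 1.01%. The direction of C1q here turned when the class was drawn otherwise, to 3.49 with cells classed by markers alone, 5.09 with the libraries clustered apart, 1.41 with the stricter mitochondrial limit and 0.45 with at least 1000 UMIs and 500 genes per cell. Adgre1 became 0.21 when the libraries were clustered apart (-0.64 to 1.09). Axl and Mrc1 remained lower under every alternative that gave them enough UMIs, with Axl no nearer to 0 than -0.91 and Mrc1 than -0.88. Axl had no value with the stricter mitochondrial limit, with at least 1000 UMIs and 500 genes, or with the libraries clustered apart. C1q turned in each of these settings, and the direction of Axl there is not known. Mrc1 had no value with at least 1000 UMIs and 500 genes. Macrophage markers summed to 1766 CPM in these control cells and 1213 CPM in the MYC library, with Vsig4 and Marco at 0 in both, and had cell medians of 671 and 265 CPM. Dendritic markers summed to 21792 and 14580 CPM, with cell medians of 24331 and 10318 CPM. Their part in the result was not tested.

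A cluster of 29 control cells and 176 cells of the MYC library with few UMIs (medians 1172 and 1197) scored highest for macrophage markers and stayed unnamed for its depth. In the control it resembled the macrophage-like cells in these genes, with C1q at 3711 CPM, Vcam1 at 1699 CPM, Mrc1 at 889 CPM, Axl at 862 CPM and Cd5l at 470 CPM. In the MYC library C1q was at 2186 CPM but Vcam1 at 90.9 CPM, Axl at 75.8 CPM, Cd5l at 53.0 CPM and Mrc1 at 34.1 CPM. Vcam1 (log2 -4.22, -4.96 to -3.53), Axl (-3.51, -4.39 to -2.66) and C1qc (-1.11, -1.59 to -0.61) were called lower, 3 of 5 tested, against 24.9% higher and 7.76% lower of 567 genes. Macrophage markers summed to 9173 CPM in control cells and 1209 CPM in those of the MYC library, and erythroid markers to 4338 and 11565 CPM. Their part in the result was not tested.

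Most Vcam1 UMIs lay in the neutrophil lineage and not in macrophages. Granulocyte progenitor-like cells held 48.4% of its UMIs in control marrow and 48.9% in that of the MYC library, in 79.1% and 72.4% of their cells. Its level there was 194 CPM and 149 CPM (log2 -0.38, -0.47 to -0.28), a difference of less than 2-fold. It was the 1 gene of the set tested in these cells and was not called, where 0.931% of 9887 genes were called higher and 4.07% lower. Immature neutrophils had 34.7 and 34.3 CPM, and mature neutrophils 3.53 CPM in both libraries. Stroma-like cells, among which marrow stroma is known to express it, were at 433 CPM (77 UMIs) and 127 CPM (22 UMIs). So the level of Vcam1 over all kept cells mostly describes the neutrophil lineage.

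Over the 39 clusters, with both libraries pooled, the genes whose levels followed C1q most closely were Hpgds (Pearson r of log2 CPM plus 1 of 0.926), Itgad (0.922), Negr1 (0.921), Cadm1 (0.917), Asb2 (0.902), Nr1h3 (0.902), Ms4a7 (0.893) and Adam23 (0.891). Hpgds makes prostaglandin D2, Itgad is an integrin chain of macrophages, and Nr1h3 encodes the sterol-sensing receptor LXR alpha, which is active after uptake of dying cells. Of the set itself Axl followed C1q at 0.840, Cd5l at 0.802, Mertk at 0.702, Mrc1 at 0.631, Timd4 at 0.612, Adgre1 at 0.599 and Vcam1 at 0.447. These coefficients are across clusters that share libraries and depth, and they are given as a description.

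A list of 58 further clearance genes served as context, and 54 of them were tested over all kept cells: 4 were called higher and 5 lower, with a median log2 ratio of -0.15 against -0.21 for all genes. Over all genes 2.82% were called higher and 9.45% lower, so the count of lower genes is close to the background. Of 16 receptors and tethers 0 were higher and 3 lower: Havcr1, a phosphatidylserine receptor (-2.63), Cd36, a scavenger receptor (-2.18), and Itgb3 (-1.08). Lrp1 (0.64) and Itgb5 (0.45) had the highest ratios among them and were not called. Among the bridging proteins and complement factors, C4b, a complement factor of the classical pathway, was higher (1.14). Gas6, the ligand of Axl and Mertk, was lower (201 and 56 UMIs; log2 -1.59, -2.04 to -1.15), as was Thbs1 (-1.12). Of 18 engulfment genes Pparg (2.09) and Nr1h3 (1.44), both nuclear receptors of lipid handling, were higher and 0 lower, with Rubcn (-0.70) and Npc1 (-0.52) the lowest. None of the 5 adhesion partners was called: Itgb7 was at 0.19, Maea at -0.14, Itga4, a chain of the Vcam1 ligand, at -0.80 and Icam4 at -0.99.

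In monocyte-like and dendritic-like cells more of the clearance list was called lower than higher. In monocyte-like cells 1 of 43 tested genes, Abca1, was called higher and 11 lower (4.73% and 5.96% over all genes), with a median of -0.46 against -0.09 for all genes. Among those lower were Lipa, the lysosomal acid lipase (109 and 47.0 CPM), C3 (535 and 256 CPM) and Itgav (26.4 and 9.95 CPM). In dendritic-like cells 0 of 30 were higher and 6 lower (5.57% and 5.02% over all genes; median -0.34 against 0.00), C3 and Lipa among them. In macrophage-like cells 13 could be tested and 0 were called in either direction (15.6% higher and 8.8% lower over all genes; median 0.12 against 0.01). Set against the macrophage-like cells of the MYC library, the Fcrl5-led cells were lower in 13 of 28 tested genes and higher in 1, against 7.13% and 4.23% over all genes. The 1 higher gene, Pparg (84.0 and 170 CPM), had only 8 UMIs in the macrophage-like cells. The 13 included Abca1, the cholesterol exporter (325 and 8.6 CPM), Lrp1 (546 and 25.9 CPM) and Cfp, properdin (535 and 32.3 CPM).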

How the data were processed

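For each library the authors deposited a matrix of raw UMI counts, which per the file headers came from Cell Ranger 6.0.0. The submitters' processing notes list Cell Ranger 6.0, Seurat and the builds GRCm38 and mm10, with no parameters. Per the labels' protocols, the libraries were made with a Chromium Single Cell 3′ kit.

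Filters asked for at least 500 UMIs, at least 200 genes and less than 10% mitochondrial UMIs: 137 control barcodes and 8 of the MYC library had too few genes, and 1609 and 1600 too many mitochondrial UMIs. Scrublet's automatic threshold called 558 doublets among control barcodes and 0 among those of the MYC library, so a common score of 0.2 was set after seeing the data. It removed 558 barcodes (3.61%) and 356 (2.76%), where 13.7% and 11.6% would be expected, so doublets remained. Both libraries were clustered together with scanpy 1.11.5 and leidenalg 0.10.2 (2000 variable genes, 30 principal components, 15 neighbours, resolution 1) without the 10 genes, the 58 clearance genes, the transgene, Myc, Gm42418, and genes of mitochondria, ribosomes, immunoglobulins or T-cell receptors. As the first round named no macrophages, 5 of its 27 clusters (4101 cells) were clustered again, also a choice made after seeing the data, which gave 39 clusters. Clusters were named from 20 marker lists, which left 42.2% of control cells unnamed and, in the MYC library, 34.2% (42.3% and 37.8% with the Fcrl5-led cells, also given no name). Free RNA was not removed.

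Per class, counts were added up over cells. Intervals are exact Poisson (CPM), exact conditional binomial (ratios) and Clopper-Pearson (shares), computed with scipy 1.17.1 and tested on simulated data. No p-value is given. All 10 genes were named, besides the 2 highest and 2 lowest clearance genes of each role, the 8 genes most like C1q over clusters among those with at least 200 UMIs, and the 10 leading genes of clusters with at least 5% of the C1q UMIs. Further clearance genes were named after their values were seen. A clearance gene that this rule names is counted but not reported here. The members and lists were chosen with earlier results of these data known. Alternatives covered cell filters, doublets, clustering, classes, scaling, free RNA and single cells.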

Additional observations from a re-analysis of the deposited data

Results flagged for a closer look

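C1q signal appeared in barcodes that the comparisons left out. In barcodes with at least 10% mitochondrial UMIs, summed C1q was at 203.7 CPM in the MYC library (918 UMIs in 1600 barcodes) and at 50.4 CPM in the control (209 UMIs in 1609 barcodes). In barcodes called doublets it was at 306.2 CPM in the MYC library (1137 UMIs in 356 barcodes) and at 5.09 CPM in the control (31 UMIs in 558 barcodes).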

How the results depend on the processing

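No paired analysis was possible because each group had 1 library. The count of alternative values covers single-gene ratios and the summed C1q ratios of monocyte-like and dendritic-like cells. Of these 402 values, 377 kept their sign and 25 changed it, 18 of these for ratios whose own interval excluded 0. Summed C1q over all kept cells and in macrophage-like cells is not in this count. Summed C1q over all kept cells (log2 3.18) was 3.28 at 5% mitochondrial UMIs, 3.25 with doublets kept, 2.88 as a mean over cells, 3.38 when scaled by median ratios, 3.09 without the most abundant genes, 3.27 after subtracting the neutrophil level, 3.26 without the richest cells and 1.32 without the Fcrl5-led cluster. That cluster's share exceeded the control's by 3.52 percentage points (2.84 at 5% mitochondrial UMIs, 3.86 with at least 1000 UMIs and 500 genes, 2.93 at resolution 2, 3.06 with libraries clustered apart), and its 76.3% of the C1q UMIs became 64.8%, 67.8%, 64.0% and 63.2% in the same order, 72.4% with doublets kept and 75.2% at resolution 0.5. The macrophage-like class depended on how it was drawn. Its share differed by -0.0452 points, and by 1.09 at 5% mitochondrial UMIs, 0.187 with libraries clustered apart, 0.852 with markers alone and 1.16 with the low-UMI phagocytes added; with at least 1000 UMIs and 500 genes no cluster was named so, and its results have no value there. Its C1q ratio of 0.49 became -1.18, 0.17 and, with low-UMI phagocytes, -0.66, and 0.34 both per cell and without the most abundant genes. Its 3 genes past 2-fold became 8 at 5% mitochondrial UMIs, 5 with libraries clustered apart, 6 with markers alone, 5 at 1.5-fold and 6 with low-UMI phagocytes.

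Reversed at 5% mitochondrial UMIs were Axl over all kept cells (-0.028, and -0.79 without the Fcrl5-led cluster), and macrophage-like C1qb (-0.61, and -0.15 with low-UMI phagocytes), C1qc (-1.22, and -0.66) and Cd5l (-2.35). The other 7 changes of sign were those of Adgre1 over all kept cells with scaling by median ratios (0.13) and of macrophage-like C1qa, from 0.08 to -1.66 at 5% mitochondrial UMIs, -1.10 with low-UMI phagocytes, -0.39 with libraries clustered apart and -0.066 to -0.027 under 3 further settings. In dendritic-like cells C1qa reversed to 2.0 at 5% mitochondrial UMIs and 3.32 with markers alone, C1qb to 1.14 and 3.58 (4.07 with libraries clustered apart), C1qc to 3.53 with markers alone, Adgre1 to 0.21 with libraries clustered apart, and summed C1q to 1.41, 3.49, 5.09 and, with at least 1000 UMIs and 500 genes, 0.45. The cause was not tested. At 5% mitochondrial UMIs the macrophage-like class held 30 control cells and 149 of the MYC library. Timd4, with 32 UMIs in all, was too sparse for any comparison.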
